A study of Mus musculus with 6 samples.

Results

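The genes described here belong to families known for converting steroids, carrying their precursor cholesterol, or attaching sulfate or glucuronic acid to them, although some members act on other molecules. They were taken by gene symbol alone and comprise the hydroxysteroid dehydrogenases (Hsd), the 5-alpha reductases (Srd5a), the aldo-keto reductases of the Akr1b and Akr1c families, the sulfotransferases (Sult) with the synthases of their sulfate donor (Papss), the UDP glucuronosyltransferases (Ugt), and Star with the Stard genes that share its lipid-binding domain. Of the 23420 genes listed, 85 had such a symbol. The steroid sulfatase gene Sts, also named in that choice, was not matched and is not analysed here.

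RNA was sequenced from uteri of C57BL/6J females aged 8 weeks at day 4.5 of pseudopregnancy, which followed mating with vasectomized males. Controls were Foxo1f/f, with loxP sites around a major coding exon in both Foxo1 alleles. The other group was PgrCre/+ Foxo1f/f, called Foxo1d/d (deleted uteri), in which Cre made from the Pgr locus deletes that exon in cells that express the progesterone receptor. The controls carried no Cre, so Cre at Pgr, which also takes up 1 Pgr allele, cannot be told apart from the loss of Foxo1. Each genotype had 3 libraries, and each library was a pool of 2 mice. The values used are the authors' mean raw counts per genotype, so no value of a single library and no SD between pools could be given. No test of a difference was made, and the authors' own test of each gene was not used.

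Control libraries averaged 26125014 counts, and libraries of deleted uteri 27257963. Mean counts were raised by a pseudocount of 1 and scaled by their genotype's total, and log2 ratios are of Foxo1d/d over Foxo1f/f. The interval printed with many of the ratios is a 95% exact (Clopper-Pearson) one from the counts summed over the 3 libraries, and reflects counting error alone and leaves out differences between pools. Genes averaging at least 10 counts across the genotypes were compared, and a gene was called higher or lower where it differed by at least 1.5-fold. Foxo1 averaged 3941 counts in control and 1456 in deleted uteri, 2.83-fold lower in the latter. These counts are of the whole gene and not of the deleted exon alone.

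As background, ovarian estrogen and progesterone reach the uterus through the blood, and uterine cells then change their amount by local enzymes. Dehydrogenases and reductases turn a steroid into a form that binds its receptor better or worse, sulfotransferases and glucuronosyltransferases make it water-soluble and unable to bind, and sulfatases and glucuronidases reverse this. Around implantation such enzymes set how much active hormone luminal epithelium, glands and stroma meet.

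Of the 85 genes, 24 were without a count, 19 had counts but a mean under 10, and 42 were compared. Sult1d1 and Srd5a1 were each about 2-fold lower in Foxo1d/d uteri and were the members past 1.5-fold with more than a mean of 50 counts. Hsd17b14 was also lower, and Akr1c18, Akr1c12, Sult2b1 and Sult1c2 were higher, all at mean counts under 50. So 4 of 42 compared members were higher (9.52%), where 853 of all 15696 compared genes were (5.43%), and 3 of 42 were lower (7.14%), where 551 of all compared genes were (3.51%). These are few genes, and the shares are given as a description. The members' median log2 ratio was -0.01, beside 0.02 over all compared genes, 20 of the 42 members and 8649 of the 15696 genes (55%) had a ratio above 0, and the counting interval left out 0 for 29 of the 42 members and for 9975 of the 15696 genes. Akr1c12, counted as higher, and Hsd17b14, counted as lower, averaged under 10 counts in 1 genotype. Each passed the filter only through the genotype where it was higher. The shares over all genes include such genes too, as 15460 of the 15696 averaged at least 10 counts in each genotype.

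**Figure D1:**
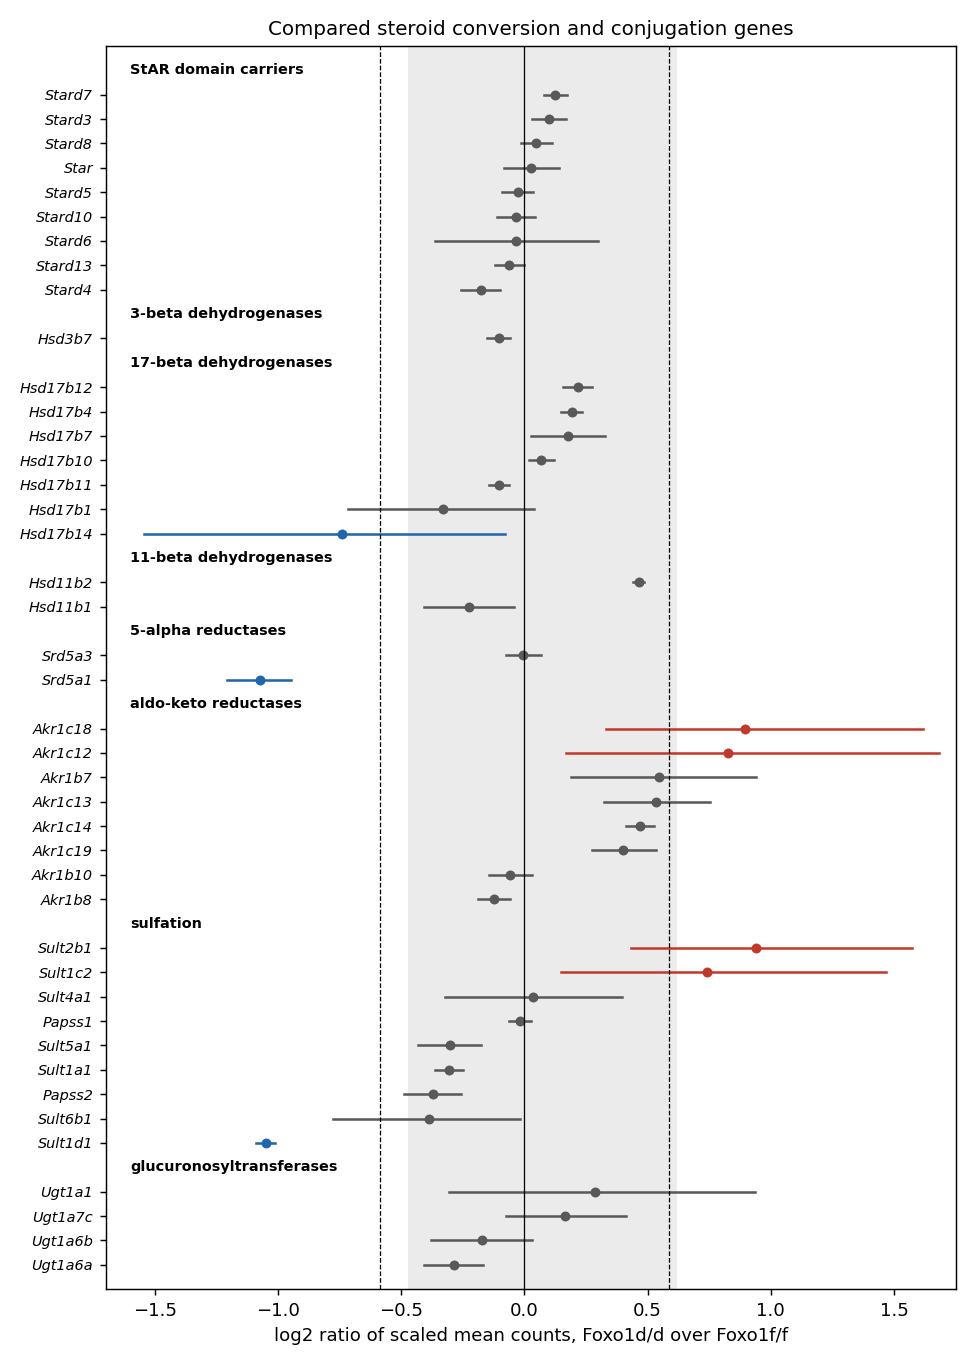
Log2 ratio between genotypes (Foxo1d/d over Foxo1f/f) (horizontal axis) for the 42 compared genes by role. Points are ratios of scaled mean counts, bars are 95% counting intervals, dashed lines mark 1.5-fold, the grey band holds the central 90% of all compared genes (-0.47 to 0.62), and red and blue mark genes past 1.5-fold. Srd5a1 and Sult1d1 lie near -1.

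Promoters are shown for Srd5a1 and Sult1d1, the well-counted genes with the largest differences, and for the 5 compared Akr1c genes, 2 of them past 1.5-fold. Each runs from 250 bases before to 50 bases after a RefSeq start site (GRCm38.p6), 5′ to 3′ along the gene. Capitals mark GTAAACA, the core that FOXO proteins bind, on either strand. They lie at chr13:69611414-69611713 (minus strand) for Srd5a1, chr5:87568957-87569256 (minus) for Sult1d1, chr13:4059341-4059640 (plus) for Akr1c14, chr13:4150597-4150896 (minus) for Akr1c18, chr13:4190937-4191236 (plus) for Akr1c13, chr13:4233490-4233789 (plus) for Akr1c19 and chr13:4279350-4279649 (minus) for Akr1c12.
Srd5a1: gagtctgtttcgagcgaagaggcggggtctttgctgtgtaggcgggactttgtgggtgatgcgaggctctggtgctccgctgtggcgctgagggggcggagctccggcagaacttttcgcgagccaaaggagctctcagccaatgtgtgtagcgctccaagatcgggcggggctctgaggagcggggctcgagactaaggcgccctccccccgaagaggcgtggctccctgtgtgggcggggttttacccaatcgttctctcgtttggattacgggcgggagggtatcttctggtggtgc
Sult1d1: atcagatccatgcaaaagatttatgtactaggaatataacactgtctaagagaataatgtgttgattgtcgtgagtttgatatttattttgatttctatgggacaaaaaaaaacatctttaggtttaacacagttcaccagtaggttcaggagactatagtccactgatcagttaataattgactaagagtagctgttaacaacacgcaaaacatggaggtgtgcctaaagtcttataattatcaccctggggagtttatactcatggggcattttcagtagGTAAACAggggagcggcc
Akr1c14: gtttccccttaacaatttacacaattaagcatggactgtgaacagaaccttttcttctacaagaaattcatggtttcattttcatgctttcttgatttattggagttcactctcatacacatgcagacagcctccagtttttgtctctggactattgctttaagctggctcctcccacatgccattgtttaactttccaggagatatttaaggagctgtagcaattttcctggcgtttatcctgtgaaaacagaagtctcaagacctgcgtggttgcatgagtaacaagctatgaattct
Akr1c18: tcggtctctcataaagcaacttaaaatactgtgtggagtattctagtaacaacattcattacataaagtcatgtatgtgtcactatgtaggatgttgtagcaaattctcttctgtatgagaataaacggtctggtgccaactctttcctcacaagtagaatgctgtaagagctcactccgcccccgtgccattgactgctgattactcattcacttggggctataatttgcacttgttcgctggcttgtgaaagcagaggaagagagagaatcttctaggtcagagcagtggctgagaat
Akr1c13: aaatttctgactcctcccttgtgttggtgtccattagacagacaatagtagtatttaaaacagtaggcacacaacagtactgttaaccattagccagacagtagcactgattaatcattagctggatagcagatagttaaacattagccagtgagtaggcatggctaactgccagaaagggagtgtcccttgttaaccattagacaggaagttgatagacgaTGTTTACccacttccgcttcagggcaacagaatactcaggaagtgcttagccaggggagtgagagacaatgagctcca
Akr1c19: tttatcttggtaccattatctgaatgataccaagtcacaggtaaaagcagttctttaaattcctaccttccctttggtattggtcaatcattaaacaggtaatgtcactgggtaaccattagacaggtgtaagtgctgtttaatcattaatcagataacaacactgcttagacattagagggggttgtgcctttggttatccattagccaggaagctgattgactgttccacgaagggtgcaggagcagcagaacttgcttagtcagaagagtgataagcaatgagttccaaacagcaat
Akr1c12: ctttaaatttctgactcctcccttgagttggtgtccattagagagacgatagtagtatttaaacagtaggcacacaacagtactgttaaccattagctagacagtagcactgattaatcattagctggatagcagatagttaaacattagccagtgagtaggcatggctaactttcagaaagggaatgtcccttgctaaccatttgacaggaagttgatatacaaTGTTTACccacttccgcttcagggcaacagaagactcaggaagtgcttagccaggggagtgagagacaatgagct

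Sult1d1 held a match that began 32 bases after its start site, and Akr1c13 and Akr1c12 held matches that began at positions -28 and -25. The promoters of Akr1c13 and Akr1c12 are near-copies, identical at 284 of 297 aligned columns (95.6%), so their matches are not separate. Srd5a1, Akr1c14, Akr1c18 and Akr1c19 had no match in the window, which says only that these letters are not there. Over all members, 69 of 85 had an entry in the promoter file used, and 13 of their 76 promoters (17.1%) held the motif, where 1199 of all 32851 promoters (3.65%) did. The members' promoters were richer in A and T (median 55.5%) than all promoters (47.3%), and those of Akr1c12 and Akr1c13 are near-copies, so the shares are not set against each other as a test. Of the members with an entry, 8 of the 33 compared and 5 of the 36 others held the motif, and the compared ones were Akr1b7, Akr1b10, Akr1c12, Akr1c13, Hsd11b1, Stard5, Stard10 and Sult1d1.

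Among the role groups, sulfation differed most in its summed level. Over 20 genes this was 413 CPM (counts per 1000000 counts) in control and 285 in deleted uteri. The 11-beta dehydrogenases differed nearly as much in the other direction, at 333 and 455 CPM. Most of the gap in sulfation came from Sult1d1 alone, at 208 CPM in control and 100.5 in deleted uteri. Sult1d1 had the most counts of the group in both genotypes, and in the mouse it sulfates catecholamines and other small phenols. It averaged 5440 counts in control and 2739.7 in deleted uteri, 2.07-fold lower, with a log2 ratio of -1.05 (interval -1.09 to -1.01). Sult1d1 stood at 86.0 CPM per kilobase of exon in control uteri, the highest of the group, and at 41.5 in deleted uteri, close to Sult1a1 at 39.9. Sult1a1, the main phenol sulfotransferase, averaged 1870.3 and 1579 counts, a log2 ratio of -0.31 (-0.36 to -0.25), under 1.5-fold. RNA of uterine tissue with its mixed cell types was measured, so fewer cells of a type and less RNA per cell cannot be told apart.

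The other sulfotransferases were far scarcer. Sult2b1, which sulfates cholesterol and hydroxysteroids, averaged 13.3 counts in control and 27.7 in deleted uteri, a log2 ratio of 0.94 with a wide interval of 0.43 to 1.57. Sult1c2 had mean counts of 10.7 and 19.3, a ratio of 0.74 (0.15 to 1.47). Sult1e1, the estrogen sulfotransferase, had no count in either genotype, and 0 counts allow up to 3 counts over a genotype's libraries, 0.0383 CPM in control and 0.0367 in deleted uteri. The 7 Sult2a genes, which sulfate hydroxysteroids in the liver, had 1 count among them. In all, 9 of the 20 sulfation genes had no count and 9 were compared, of which 2 were higher and 1 lower.

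Papss1 and Papss2 make PAPS, the sulfate donor of every sulfotransferase. Papss1 averaged 2564 and 2642 counts, a log2 ratio of -0.02 whose interval includes 0. Papss2 had 445 and 358, a ratio of -0.37 (-0.49 to -0.26). Neither was past 1.5-fold.

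Among the 5-alpha reductases, which reduce the A ring of progesterone and testosterone, Srd5a1 was the one past 1.5-fold. It averaged 484 counts in control and 239 in deleted uteri, 2.11-fold lower, with a log2 ratio of -1.08 (-1.21 to -0.95). Of its 90-base windows, 15.2% also occur in another annotated gene, so some of its reads may have been lost or set elsewhere. How many was not measured. Srd5a3, which reduces polyprenol for protein glycosylation rather than a hormone, had mean counts of 1048 and 1090.3, a ratio of -0.005 whose interval includes 0. Per kilobase, Srd5a3 stood 2.83 times above Srd5a1 in control and 5.97 times in deleted uteri. Srd5a2 had a mean count of 0.667 and 3, below the filter.

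The 11-beta dehydrogenases act on glucocorticoids. Hsd11b2, which inactivates corticosterone, was the most abundant member of all per kilobase, at 177 CPM per kilobase in control and 244 in deleted uteri. Its mean counts were 8517 and 12257, a log2 ratio of 0.46 (0.44 to 0.49), under 1.5-fold. Hsd11b1, which makes corticosterone active again, was at 3.57 and 3.05 CPM per kilobase, with a ratio of -0.23 (-0.41 to -0.04). Per kilobase, Hsd11b2 exceeded Hsd11b1 49.6 times in control and 80.1 times in deleted uteri. H6pd, which supplies NADPH to the Hsd11b1 enzyme, was lower, at 9558 and 5638 counts with a log2 ratio of -0.82 (-0.85 to -0.80).

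The 17-beta dehydrogenases include enzymes that interconvert estradiol and estrone and others that act mainly on lipids. The level lay with the latter, Hsd17b10 in mitochondria (73.3 CPM per kilobase in control uteri, 76.9 in deleted uteri) and Hsd17b4 in peroxisomes (41.1 and 47.0). Their log2 ratios were 0.07 and 0.19, and that of Hsd17b11, a lipid droplet protein, was -0.10. Hsd17b7, which also serves cholesterol synthesis, had a ratio of 0.17.

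Hsd17b1, which makes estradiol from estrone, averaged 44 and 36.3 counts, a log2 ratio of -0.33 whose interval of -0.72 to 0.04 includes 0. Hsd17b2 catalyses the reverse step, and had 34 summed counts in control and 4 in deleted uteri. Its mean over both genotypes was below the filter, so it was not compared, but without the pseudocount it was 8.87-fold lower, and its log2 ratio with it was -2.46 (-5.10 to -1.66). Hsd17b14 had 45 summed counts and 27, a ratio of -0.74 (-1.54 to -0.08). Of 11 genes of this group, 7 were compared, 1 was lower and none higher.

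The 3-beta dehydrogenases that make progesterone had few counts or none. Hsd3b6 had no count, Hsd3b1 had 1 summed count in control and 0 in deleted uteri, and Hsd3b3 had 34 and 24. Hsd3b7, a bile acid enzyme, was the member of this group compared, at 2500.3 and 2427 counts with a log2 ratio of -0.10 (-0.15 to -0.06). In the annotation used here for exon lengths (GENCODE M21), exons of another gene cover 86.4% of the Hsd3b7 exons. The authors counted on RefSeq genes, so its count may depend on how shared reads were assigned, which was not tested.

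**Figure D2:**
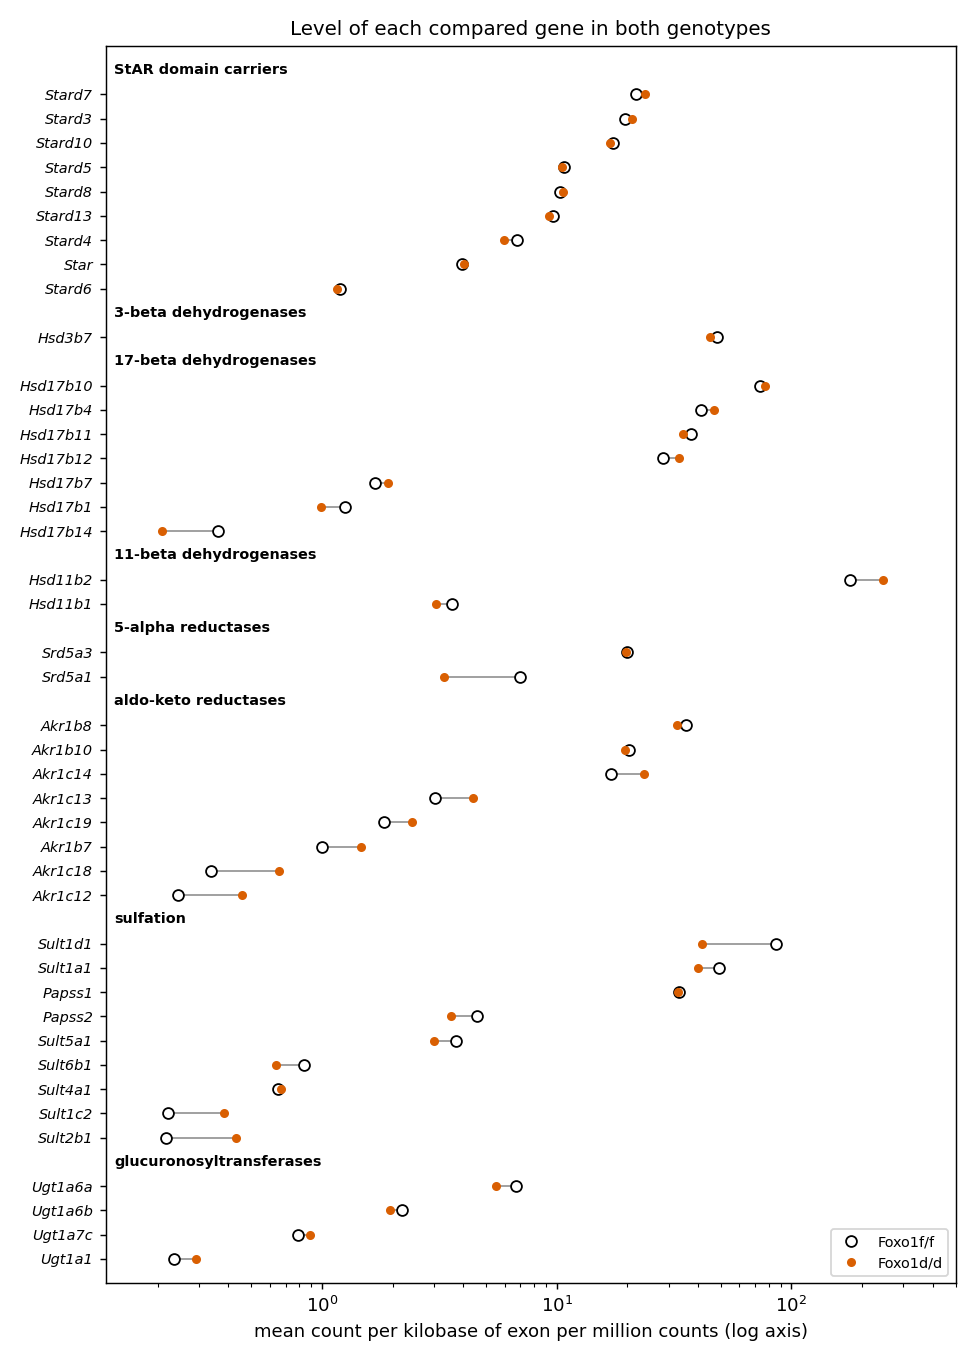
Level of the 42 compared genes, as CPM per kilobase of exon on a log axis, in Foxo1f/f (open) and Foxo1d/d (filled), by role. Levels range from 0.208 for Hsd17b14 to 244 for Hsd11b2, and the gap between the genotypes is widest for the genes past 1.5-fold.

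The aldo-keto reductases lie in clusters, and the Akr1c genes reduce keto groups of steroids and prostaglandins. Of 8 Akr1c genes, 5 were compared. Akr1c12 averaged 8 counts in control and 15.7 in deleted uteri. It passed the filter only through the latter, so its ratio is left out of the tally here. Each of the other compared Akr1c genes had a log2 ratio with an interval wholly above 0, as had 5718 of all 15696 compared genes (36.4%). Their ratios were also above 0 after centring on the median gene, where the lowest was 0.38. Akr1c18, the 20-alpha dehydrogenase that inactivates progesterone, had mean counts of 10.7 and 21.7, a ratio of 0.90 (0.33 to 1.62) and 1.95-fold higher. Akr1c12 had 24 summed counts and 47, a ratio of 0.83 (0.17 to 1.68). The other 3 were under 1.5-fold. Akr1c14, a 3-alpha dehydrogenase, carried most of the counts of the family, with means of 1412 and 2039 and a ratio of 0.47 (0.41 to 0.53). Akr1c13 (0.53) and Akr1c19 (0.40) lay near it.

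These 8 genes lie together on chromosome 13 within 538 kb (RefSeq, GRCm38.p6). Akr1c12 and Akr1c13 share 13.1% of their 90-base windows, so reads from one may have been lost or set to the other. The pseudogene Marcksl1-ps4 among them had a ratio of 0.33. Summed over the family, the level was 69.3 CPM in control uteri and 95.9 in Foxo1d/d.

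The Akr1b genes did not all go the same way. Akr1b8 and Akr1b10 stood highest of the aldo-keto reductases per kilobase in Foxo1f/f, at 35.6 and 20.3, with log2 ratios of -0.12 and -0.06, the latter with an interval that includes 0, while in Foxo1d/d Akr1c14 at 23.5 lay above Akr1b10 at 19.5. Akr1b7, which can make prostaglandin F, had mean counts of 33.3 and 51.3, a ratio of 0.55 (0.19 to 0.94) that lay just under 1.5-fold. Akr1b3, the aldose reductase, was listed at 0 in both genotypes. Of its windows, 68.4% also occur in another annotated gene, while the rest do not. Why it had no count was not tested, and the 0 may not reflect its RNA.

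The StAR domain carriers hardly differed. Star, which brings cholesterol into mitochondria for steroid synthesis, averaged 419 and 446 counts, a log2 ratio of 0.03 (-0.08 to 0.14). Stard7 and Stard3, carriers of phosphatidylcholine and of endosomal cholesterol, were the highest of the group, at 21.9 and 19.6 per kilobase in Foxo1f/f, with ratios of 0.13 and 0.10. All 9 were compared, none passed 1.5-fold, and ratios lay between -0.18 and 0.13.

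Glucuronosyltransferases were sparsely expressed. Of 21, 9 had no count and 4 were compared, none past 1.5-fold. Ugt1a6a averaged 420 and 359 counts, a log2 ratio of -0.29 (-0.41 to -0.17), and Ugt1a6b had 137 and 126, a ratio of -0.17 (-0.38 to 0.03). Ugt1a1, the bilirubin enzyme, had 13.7 and 17.7. The Ugt1a genes are built from one array with shared last exons, and 95.7% of the windows of Ugt1a6a occur in another gene, so these counts cannot be given to single genes with confidence. Of the 10 Ugt2 genes, many of which act on steroids in the liver, 8 had no count. Ugt8a, which makes a glycolipid of myelin, had a mean of 8.67 and 8, below the filter.

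**Figure D3:**
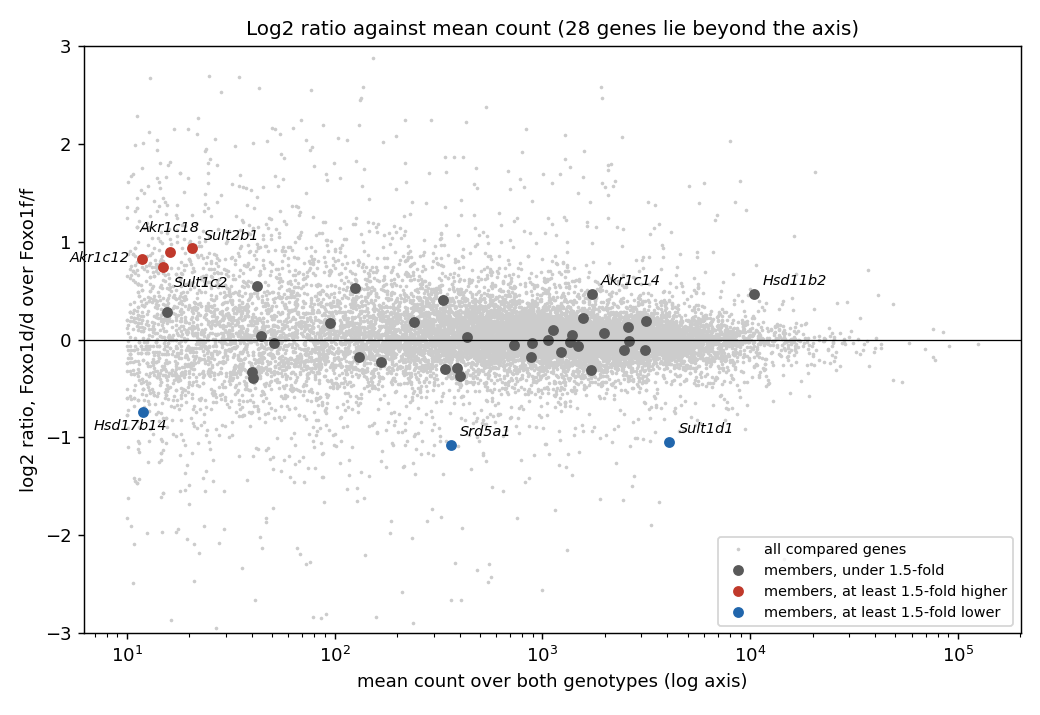
Log2 ratio between genotypes (Foxo1d/d over Foxo1f/f) against mean count over both genotypes (log axis) for all 15696 compared genes (grey), with members in dark grey, red (at least 1.5-fold higher) and blue (lower). The 4 higher members lie at the left edge, at mean counts under 50, while Srd5a1 and Sult1d1 lie at higher counts, and 28 genes lie beyond the vertical axis.

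Other genes of these pathways were compared in the same way. Of 44 listed, 42 were found and 35 compared, of which 0 were higher and 2 lower. Over all compared genes, 5.43% were higher and 3.51% lower. The median log2 ratio of the 35 was 0.04, beside 0.02 over all compared genes. The P450 genes of steroid synthesis had few counts or none. Cyp11a1 had mean counts of 9.67 and 9, Cyp17a1 of 0.667 and 2.33, Cyp19a1 of 0 and 0.333, and Cyp11b2 had none. Redox partners Fdx1, Fdxr and Por had ratios of 0.20, 0.13 and 0.05.

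For cholesterol supply, all 6 genes were compared and under 1.5-fold, with ratios from -0.39 for Scarb1, a lipoprotein receptor, to 0.32 for Soat1, which esterifies cholesterol. Of 7 hormone receptor genes found, 6 were compared and none was past 1.5-fold. Pgr had a ratio of 0.20, Esr1 of 0.06 and Nr3c1 of 0.07. Among sulfate carriers, Slc26a2 (0.52) and Slc26a1 (-0.44) differed in opposite directions, both under 1.5-fold. Of the genes for UDP-glucuronate, Ugp2 had a ratio of 0.40 and Ugdh of 0.04 (-0.01 to 0.09). Gusb, which removes glucuronic acid, had 0.11. Among 8 transporters of conjugates, Slco4a1 was lower, at 303 and 129 counts with a ratio of -1.29 (-1.47 to -1.12), and Abcc4 had -0.46.

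**Figure D4:**
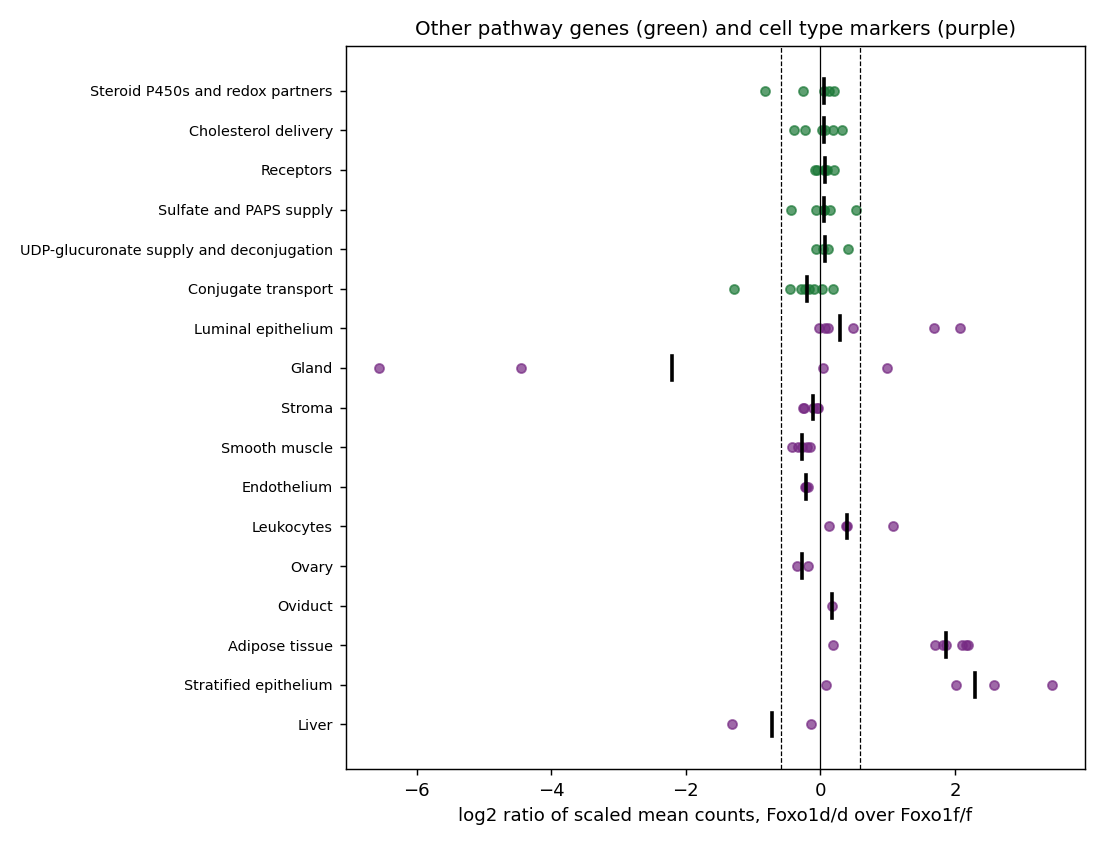
Log2 ratio between genotypes (Foxo1d/d over Foxo1f/f) for each compared gene of the other pathway lists (green) and of the cell type marker lists (purple), with the median of each list as a black bar and 1.5-fold as dashed lines. The medians of the pathway lists lie between 0.05 and 0.07, except that of conjugate transport at -0.20, while Prss28 and Prss29 lie far to the left and most adipose and stratified epithelium markers lie right of 1.5-fold.

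Markers of the tissues in a uterus differed as well, and their part in the results above was not tested. Of 4 gland markers found, Prss28 and Prss29 were lower, at log2 ratios of -6.56 and -4.46, while Lif was higher and Foxa2 was at 0.04 (-0.10 to 0.18). Their summed level was 763 CPM in control uteri and 102 in Foxo1d/d, led by Prss29 in controls and by Lif in deleted uteri. Of 6 luminal epithelium markers, Calb1 (2.07) and Ltf (1.69) were higher, and the sum, led by Cdh1, was 577 and 791. Stroma (5 markers, sum 2584 and 2273, led by Vim), smooth muscle (5, 6040.1 and 4895, led by Myh11) and endothelium (4, 1030.2 and 887, led by Pecam1) had all their ratios below 0 and none past 1.5-fold. Of 4 leukocyte markers, Cd3e was higher at 1.09, and the sum, led by Ptprc, was 154 and 198.

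Markers of tissues outside the uterine wall were counted too, and their part in the results above was not tested either. Of 7 adipose markers, 6 were higher and the median ratio was 1.86, and the sum, led by Lipe, which also stands in the cholesterol list, was 43.9 CPM in control uteri and 80.1 in Foxo1d/d. Of 4 compared markers of stratified epithelium, 3 were higher, from 2.01 for Krt14 to 3.44 for Krt15, and the sum, led by Trp63 in controls and by Krt5 in deleted uteri, was 6.16 and 21.7. Of 8 ovary markers, Inha (-0.19) and Amh (-0.35, interval -0.98 to 0.25) were compared, the sum was 17.7 and 15.6, most from Inha, and Fshr and Zp3 had no more than 1 summed count in either genotype. Ovgp1 of the oviduct had a ratio of 0.17, at 112 and 126 CPM. Of 4 liver markers, Ttr was lower (-1.31) and the sum, most from Ttr, was 6.00 and 3.22.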

How the data were processed

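RNA of pooled uteri, 3 libraries of 2 mice per genotype, was sequenced. The study's methods say that horns were taken without the cervix, in a passage worded for mice after surgery, so whether this held for these mice is not certain. The authors trimmed the paired reads to 90 nucleotides, mapped them with STAR to RefSeq genes, removed duplicates with Picard, counted reads per gene with HTSeq and tested genes between genotypes with edgeR, whose versions are not given in the sources used here. The build is mm10 in the study's methods and mm9 in the submitters' processing notes. The table used here has no coordinates, so positions and promoters are those of RefSeq on GRCm38.p6. The deposited table gives the authors' mean raw counts of each genotype, which are averages by the authors of whole HTSeq counts and not expected counts of an estimating program, and all are whole after multiplication by 3 (within 1e-06). It also holds the authors' fold change, average log2 CPM, p-value and FDR, which were not used. The number of other columns of single samples left out is 0.

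Summed counts were 78375043 in Foxo1f/f and 81773890 in Foxo1d/d. The pseudocount, filter, fold and interval are stated with the results, and folds of single genes carry no pseudocount. Levels per kilobase used the union of basic protein-coding exons of GENCODE M21, which matched all 85 members. Shared windows of 90 bases were found by comparing transcripts of GENCODE M21 between genes. The test planned for counts of single libraries was not run, since the values used are means per genotype. The planned description of genotype means took its place. Python 3.11.15 was used with numpy 2.4.6, pandas 2.3.3 and scipy 1.17.1. The steps were tested on simulated data.

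The members and lists were chosen with earlier results of these data known. Of the pathway and marker lists, 3 genes are not reported here and were left out of the counts and sums. Named are members past 1.5-fold with a mean count of at least 10, the 2 highest per kilobase in controls in each role group, and members with a textbook role in hormone handling. Other members were named to complete a family, after their values were seen. Alternatives were a pseudocount of 0.1, centring on the median gene, upper quartile scaling, other filters and other fold thresholds.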

Additional observations from a re-analysis of the deposited data

How the results depend on the processing

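The number of members at least 1.5-fold higher in Foxo1d/d was 4 and the number lower was 3, and both counts were the same with a pseudocount of 0.1, with ratios centred on the median gene, with upper quartile scaling, and where the counting interval also had to lie wholly past 1. Of all 15696 compared genes, 853 were higher and 551 lower in the main setting. These were 794 and 595 after centring, and 801 and 588 with upper quartile scaling. For the other settings the counts over all genes are not given, so the member counts there are a description of the members alone. With no filter beyond a count in either genotype, 7 were higher and 6 lower. With a mean count of at least 50, 0 were higher and 2 lower, since every higher member had a mean count under 50. At a fold of 2, 0 were higher and 2 lower, and at a fold of 5 to 4 in either direction, 9 were higher and 6 lower. Leaving out members with at least 10% of their windows in another gene, an alternative chosen after seeing the data, gave 3 higher and 2 lower. The members past 1.5-fold that this removed were Akr1c12, which was higher, and Srd5a1, a well-counted gene that was lower. Of 96 recomputed log2 ratios of 32 named genes, 0 changed sign and 1 left its counting interval, that of Hsd11b2, 0.44 after centring instead of 0.46. No paired analysis was possible because the values used are means per genotype, and for the same reason leaving out each replicate was not run. Depth limits the genes with few counts, whose intervals are wide, and no interval here covers the differences between pools.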

Other observations

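A few related genes fall outside the symbol rule and were looked at after the values were seen. Akr1cl, an Akr1c-like aldo-keto reductase gene, averaged 42.7 counts in control and 186 in deleted uteri, 4.19-fold higher, with a log2 ratio of 2.04 (interval 1.79 to 2.35), which is more than any of the compared members. Akr1d1, which reduces the steroid ring in the 5-beta direction, had mean counts of 23 and 47, a ratio of 0.94 (0.54 to 1.41). Akr1e1 had 842 and 961, a ratio of 0.13 (0.05 to 0.21). The other compared genes with an Akr symbol outside the rule, Akr1a1 and Akr7a5, had ratios of 0.08 and 0.02. These values come with no test.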
